A study of Mus musculus with 7 samples.

Results

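The comparison is of colon from untreated Atg4b knockout (KO) mice with colon from untreated wild-type (WT) mice. It rests on 2 of the 7 arrays of the series, 1 per genotype, and covers 19938 genes. Both arrays were picked by their labels, but the comparison and its 45 gene lists were chosen with earlier results of these data known. The mice were 3 months old and of mixed C57Bl6/129Sv background, and total RNA of the colon was labelled with biotin and hybridised to Affymetrix one-colour arrays. The other arrays hold control ileum, with 1 WT and 1 KO array, and colon after dextran sulfate sodium (DSS), an oral agent that injures the colonic epithelium, given for 7 days with 3 days of water to follow, with 1 WT and 2 KO arrays. DSS arrays come from the same strain and age, but their sex pattern, given below, differs from that of the control colon arrays. The labels call the allele a knockout without describing it. Nor do they tell if arrays come from separate mice, so any p-value measures only the spread between arrays.

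Atg4b is a cysteine protease of macroautophagy. It cuts the C terminus of newly made Atg8 proteins (the LC3 and GABARAP families) so that they can be joined to lipid on the growing autophagosome, and it also releases them from lipid. Autophagy proteins of the intestine are best known for their part in the secretory cells of the epithelium and in the restraint of inflammation, and the series was made to follow Atg4b loss in the intestine during colitis.

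Values are log2 of the deposited intensities, and a difference is KO minus WT on that scale, so that 1 unit is 2-fold. Each control colon difference has no replicate check and no SD. The spread that can be set beside it is that of the 2 KO DSS arrays, whose difference had an SD over genes of 0.31. The medians of the gene lists between those 2 arrays had an SD over lists of 0.25, and reached 0.90 for smooth muscle and -0.56 for cholesterol synthesis. List medians near that SD, such as those of immediate early, glucocorticoid, goblet cell and interferon genes below, are not set apart from this spread. Those of circadian, B cell, follicle and MHC class II genes were larger, but also within the range of -0.56 to 0.90 between those 2 arrays. The control colon difference had an SD over genes of 0.27 and a median of -0.05, and 41.0% of genes lay above 0. Its median moved with level. It was 0.09 in the second decile of genes by mean level and -0.19 in the eighth, so that bright genes as a whole read slightly lower on the KO array. For this reason list medians are also given after the median difference of each gene's decile was taken off, called level-centred below, a step added after the data were seen. The lower quartile of genes was 5.77 on the WT and 5.87 on the KO array, and differences of genes near it may be understated. Both arrays carried the markers of colon. Over 31 colonocyte genes the means were 10.79 (WT) and 10.78 (KO), against 9.81 and 9.55 in ileum. The mean of 18 colon position genes was 8.09 and 7.89, against 6.93 and 6.81 in ileum. Xist, the RNA of the inactive X chromosome, was at 5.19 in WT and 5.36 in KO control colon, and the Y-linked Eif2s3y was at 9.56 and 9.39. Both arrays thus had the male pattern, although the label of the WT array says female. All 3 DSS arrays had the female pattern, with Xist at 12.16 or more. Among the colon arrays, a difference between control and DSS therefore cannot be told apart from one of sex.

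Atg4b was lower in the KO control colon than in the WT control colon. Its log2 intensity was 7.35 in WT control colon and 5.45 in KO control colon, 7.72 and 5.39 in WT and KO ileum, and 7.59 in WT against 5.39 on both KO arrays in DSS colon. All 3 WT arrays lay above all 4 KO arrays with no overlap. The control colon difference was -1.90 (3.74-fold lower in KO), and the KO value lay below the lower quartile of genes. It became -1.37 when 32 was added to each intensity before log2. Over the 3 conditions limma gave -2.15 ± 0.10 (SE, 4 KO against 3 WT arrays, adjusted p = 0.0073). Atg4b alone passed in that fit, which is 0.00502% of the genes tested. It no longer passed without any 1 of 6 of the 7 arrays (adjusted p from 0.0675 to 0.17), and it passed without KO DSS replicate 1 (adjusted p = 0.0128).

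The other Atg4 proteases, which share its substrates in part, lay within 0.5 log2 units of WT. Atg4a was at 8.88 in WT and 8.81 in KO control colon, Atg4c at 8.17 and 7.78, and Atg4d at 9.07 and 8.62. The 3 differences ran from -0.46 to -0.07, and the level-centred ones from -0.27 to 0.12. None of the 5 substrates of the Atg8 family differed 2-fold. Map1lc3a (LC3A) was at 8.63 and 8.30, Map1lc3b (LC3B) at 10.80 and 10.53, Gabarap at 13.01 and 12.90, Gabarapl1 at 10.06 and 9.79, and Gabarapl2 at 11.49 and 11.47. Of 26 genes of the core machinery, 25 read lower in KO, with a median of -0.27, while 41.0% of all genes lay above 0. The sole core gene above 0 was Irgm1, the interferon-induced GTPase of the IRG family, at 0.40. The lowest were Atg10 (-0.57), an E2-like enzyme of Atg12 conjugation, Pik3r4 (-0.46), Atg16l1 (-0.44) and the lipid transfer protein Atg2a (-0.43). Level-centred, the median of the core list was -0.11, and 9 of 26 lay above 0. The 16 measured cargo receptors and lysosome genes had a median of -0.20, or -0.06 level-centred. Sqstm1, the cargo receptor p62, was at 11.56 in WT and 11.45 in KO. No gene of these lists apart from Atg4b passed 2-fold.

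The 12 measured genes nearest to Atg4b on chromosome 1, 6 on each side, ran from -0.43 for Thap4, a neighbour of Atg4b, to 0.34 for the sulfotransferase Gal3st2c. None passed in limma over the 3 conditions (adjusted p of 0.989 or more in each).

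Past 2-fold, 35 genes were higher (0.176% of genes) and 57 lower (0.286%) in KO control colon. Under quantile normalization these became 49 and 48. Adding 32 before log2 left 12 higher genes, and leaving out dim genes 17. The 2 KO DSS arrays, of one genotype and treatment, differed from each other by as much in more genes, with 149 higher (0.747%) and 99 lower (0.497%). In ileum 124 were higher (0.622%) and 53 lower (0.266%), and in DSS colon, with the mean of the KO arrays, 131 were higher (0.657%) and 45 lower (0.226%). Taken as 1 array against 1, KO DSS replicate 1 gave 373 higher and 141 lower, and replicate 2 gave 46 and 32. Of the 57 lower genes, 52 had a WT value above the median of all gene values (7.33). Of the 35 higher genes, 17 had a KO value above it, and 12 of the 35 were predicted genes, small RNAs, odorant receptors or receptor segments. In limma with 6 separate groups, whose spread comes from the KO DSS pair alone (1 residual degree of freedom), no gene passed for control colon. The lowest adjusted p was 0.948, and 699 genes (3.51%) had an unadjusted p under 0.05. In limma with a shared genotype effect and a separate term for control colon, again 0 passed, with 1207 genes at an unadjusted p under 0.05, and the lowest adjusted p was that of Ucp1 (0.244). A variance trend with robust fit called 1 gene, the odorant receptor Olfr1160. It was at 3.80 in WT and 5.55 in KO control colon, 1.75 ± 0.11 (SE) higher (limma, adjusted p = 0.0366), and below the lower quartile of genes on both arrays. It is named after its values were seen. The differences given below are therefore values of 1 array against 1.

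**Figure D1:**
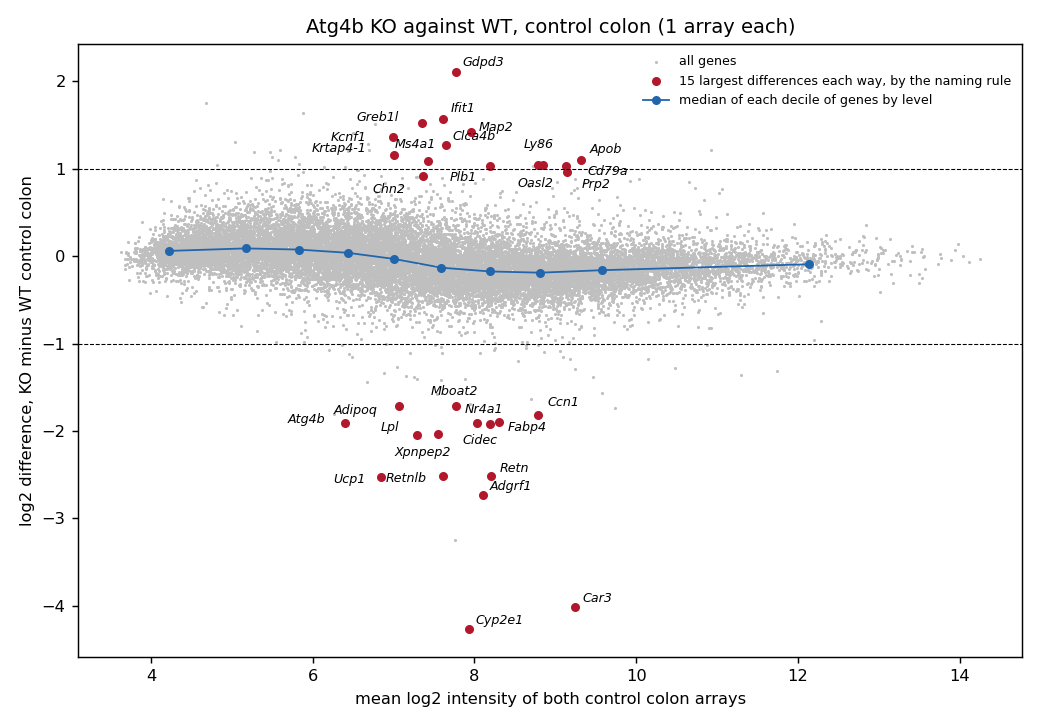
Each point is a gene, with the mean log2 intensity of both control colon arrays on the x axis and the log2 difference, KO minus WT, on the y axis; dashed lines mark 2-fold, red points the 15 named genes each way and the blue line the median of each decile of genes by level. The named lower genes reach -4.27 and the named higher ones 2.11, while the decile medians stay between -0.19 and 0.09.

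Genes of fat storage made up the lowest group. Of the 17 adipocyte genes measured, 16 were lower in KO control colon, 8 of them past 2-fold, with a median of -0.98 against -0.05 over all genes. Of all genes, 41.0% lay above 0 and 0.286% were lower past 2-fold. The list mean was 8.91 in WT control colon, 7.61 in KO control colon, 9.50 and 9.48 in WT and KO ileum, 7.36 in WT DSS colon, and 8.07 and 7.42 in the KO DSS colons. The WT control colon thus read higher than every DSS colon and below both ileum arrays, and the KO control colon lay within the range of the DSS colons. Whole colon can hold adipocytes of the attached mesentery, and fewer cells of a type and less RNA per cell cannot be told apart in such tissue.

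Car3, a carbonic anhydrase abundant in adipocytes and skeletal muscle, was at 11.25 in WT and 7.23 in KO control colon, a difference of -4.02 (16.2-fold). It was at 12.28 and 11.78 in WT and KO ileum, and 6.21 in WT DSS colon. KO DSS replicate 2 was at 6.89 and replicate 1 stood 3.10 above it, so the spread within that group was of the size seen between the control colons. The median of 14 skeletal muscle genes was 0.02, with 8 above 0. In WT control colon 5 of the 14 lay below the lower quartile of genes. Acta1 was at -0.28 and Ckm at -0.20, while Tnni2 was at 0.29. The cell source of Car3 was not tested. Retn, the adipokine resistin, was at 9.45 in WT and 6.94 in KO control colon (-2.51), 10.58 and 10.69 in ileum, and 6.68, 8.38 and 6.61 in WT DSS colon and KO DSS replicates 1 and 2. Its ileum values did not separate the genotypes by more than 0.11. Lpl, the lipase that frees fatty acids from circulating lipoproteins, was at 8.31 in WT and 6.27 in KO control colon (-2.04), where it had its lowest value of the 7 arrays.

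The proteins of the lipid droplet and of fatty acid handling stood with them. Cidec, which enlarges fat droplets, was at 8.99 and 7.08 (-1.91), and Plin1, the droplet coat protein perilipin, at 7.94 and 6.57 (-1.38). Fabp4, the fatty acid carrier of adipocytes, was at 9.25 and 7.35 (-1.90), and the hormone adiponectin, Adipoq, at 7.92 and 6.20 (-1.72). The desaturase Scd1 was at 11.98 and 10.62 (-1.36). Genes of fat synthesis that many cell types share differed less, with Fasn at 11.03 and 10.57 (-0.46) and Acaca at 9.35 and 8.97 (-0.38). Leptin, Lep, was at 5.24 and 5.29, below the lower quartile on both arrays. With dim genes left out, the median of the list was -1.37.

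Ucp1, the uncoupling protein of brown and beige fat, stood apart in 1 array. It was at 8.10 in WT control colon and between 5.46 and 5.58 on the other 6 arrays, all of them below the lower quartile of genes. The difference was -2.53 (5.77-fold). Among 10 brown fat genes, picked after the data were seen, Cox8b was at 7.76 in WT and 6.65 in KO control colon (-1.11) and Cidea at 6.04 and 5.06 (-0.98), and each had its highest value of the 7 arrays in WT control colon. Prdm16 (-0.13), Dio2 (0.05) and Zic1 (-0.03) were nearly equal, and the median of the 10 was -0.19.

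Cyp2e1, a cytochrome P450 that oxidises ethanol and small solvents and is abundant in liver and fat, had the lowest difference of all genes as deposited. With 32 added before log2 it was -3.65 and that of Car3 -3.76, so the order of these genes turns. It was at 10.06 in WT and 5.79 in KO control colon (-4.27, 19.2-fold), 9.90 and 9.09 in WT and KO ileum, 5.46 in WT DSS colon, and 6.84 and 5.75 in the KO DSS colons. The KO control colon value lay below the lower quartile of genes, beside those of WT DSS colon and KO DSS replicate 2. Over 40 genes of xenobiotic metabolism the median was -0.03, and Cyp2e1 alone passed 2-fold. Its array order was close to that of the adipocyte list, with both ileum arrays and WT control colon high. The part of adipocytes in these differences was not tested.

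**Figure D2:**
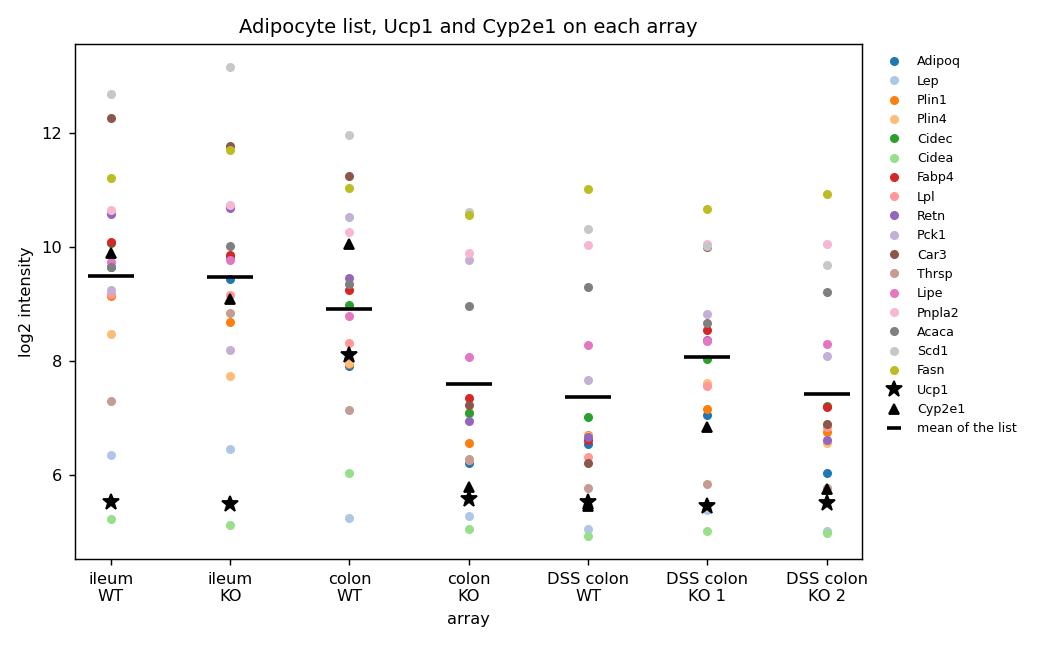
The log2 intensity (y axis) of 17 adipocyte genes, Ucp1 and Cyp2e1 is drawn for each of the 7 arrays (x axis); black bars are the mean of the 17 genes. The bar stands at 8.91 in WT and 7.61 in KO control colon, and Ucp1 is at 8.10 in WT control colon and at most 5.58 elsewhere.

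Genes of the immediate early response, which cells switch on within minutes of a stimulus, formed another lower group. Of 22 genes, 18 read lower in KO control colon, 4 of them past 2-fold, with a median of -0.27, or -0.18 level-centred. Over all genes 41.0% lay above 0, and 0.286% were lower past 2-fold. Averaged over the list, WT control colon stood at 8.91 and KO control colon at 8.45. The mean was 8.39 and 8.52 in WT and KO ileum and 8.93 to 8.96 in the 3 DSS colons, so the WT control colon lay with the DSS colons and the KO control colon with the ileum.

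The 4 genes past 2-fold encode transcription factors. Nr4a1, an orphan nuclear receptor, was at 9.15 in WT and 7.23 in KO control colon (-1.92), 7.21 and 7.62 in WT and KO ileum, 8.21 in WT DSS colon, and 8.41 and 8.91 in the KO DSS colons. The WT control colon was the highest of the 7 arrays and the KO control colon the second lowest. Fosb, a subunit of AP-1, was at 8.79 and 7.10 (-1.69), the highest and the lowest of the 7 arrays. Atf3, a stress-induced factor, was at 9.89 and 8.60 (-1.29), and Egr1, a zinc finger factor, at 9.40 and 8.31 (-1.09). Fos itself was at 9.29 and 8.49 (-0.80). In contrast Egr2 was at 6.48 and 6.89 and Zfp36, which destabilises messenger RNA, at 9.95 and 10.01. Ccn1, a matrix protein that growth factors induce and that is on no list here, was at 9.70 and 7.88 (-1.82), with ileum at 8.51 and 8.05 and DSS colon at 8.38, 8.58 and 9.70 in WT and KO replicates 1 and 2. Its KO control colon value was the lowest of the 7 arrays.

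The promoters of Nr4a1 and Fosb are shown because they are the members of this list with the largest differences. Each runs from 250 bases before to 50 bases after the start in RefSeq (GRCm38.p6) and is written 5′ to 3′ on the gene's strand. Nr4a1 is at chr15:101266596-101266895 (plus strand) and Fosb at chr7:19309996-19310295 (minus strand). Capitals mark TGACG, the core letters of the cyclic AMP response element, on either strand.
Nr4a1: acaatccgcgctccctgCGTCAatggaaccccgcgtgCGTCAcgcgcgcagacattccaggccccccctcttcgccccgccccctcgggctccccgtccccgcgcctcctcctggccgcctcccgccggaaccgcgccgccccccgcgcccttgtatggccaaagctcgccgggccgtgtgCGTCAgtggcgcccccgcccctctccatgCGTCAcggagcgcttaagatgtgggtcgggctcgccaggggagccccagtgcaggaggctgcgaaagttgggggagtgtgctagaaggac
Fosb: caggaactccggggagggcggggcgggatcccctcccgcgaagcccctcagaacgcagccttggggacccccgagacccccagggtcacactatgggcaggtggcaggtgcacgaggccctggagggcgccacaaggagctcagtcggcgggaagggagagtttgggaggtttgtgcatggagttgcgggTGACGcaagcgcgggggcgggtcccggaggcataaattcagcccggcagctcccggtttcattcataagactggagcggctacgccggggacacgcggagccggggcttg
The Nr4a1 promoter held the letters at 4 places, between positions -233 and -36 from the start, and the Fosb promoter at 1, from -60 to -56. Among 18 genes of the list with a promoter in the table, 12 held TGACG, against 20.8% of all 32851 promoters. The whole palindrome TGACGTCA, which includes the core, stood in 2 of the 18 (Dusp1 and Btg2), against 1.79% of all. The CArG box of serum response factor stood in 2 (Egr2 and Zfp36), against 1.63%. A list gene counted if any of its promoters matched, whereas the shares of all are per promoter. Neither Egr2 nor Zfp36 was lower in KO control colon, and Egr2 was also among the 12 genes that held TGACG. A match says that the letters are present and no more.

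Clock and hormone-regulated genes lay lower as well. Of 17 circadian genes, 15 were below 0, with a median of -0.43, or -0.27 level-centred, while 41.0% of all genes lay above 0. The repressors Nr1d2 and Nr1d1 (REV-ERB beta and alpha) were at 9.66 and 11.36 in WT and 8.68 and 10.72 in KO control colon, differences of -0.98 and -0.65. Dbp, an output factor of the clock, was at 8.11 and 7.46 (-0.65). The activator Arntl (BMAL1), which Nr1d1 represses, was at 8.78 and 9.11 (0.33), and Cry1 at 6.92 and 7.18 (0.26). None of the 17 passed 2-fold in control colon. The median of this list was 0.05 in ileum and 0.09 in DSS colon. Nr1d1 was at 10.70 in WT and 9.52 in KO ileum (-1.17), past 2-fold, while Nr1d2 (-0.12) and Dbp (0.16) differed little there. KO DSS replicate 1 stood above replicate 2 by 0.68 for Nr1d1, 0.62 for Nr1d2 and 0.73 for Dbp.

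Of 15 genes that glucocorticoids regulate, 12 lay below 0 (median -0.34, or -0.20 level-centred) and 3 past 2-fold. The shares over all genes were 41.0% above 0 and 0.286% lower past 2-fold. Pdk4, the kinase that turns off pyruvate oxidation in fasting, was at 8.33 in WT and 6.75 in KO control colon (-1.58), 7.52 and 8.05 in ileum, 5.84 in WT DSS colon, and 7.78 and 6.60 in the KO DSS colons. Its control colon and DSS differences had opposite signs. The metallothioneins Mt2 and Mt1, which bind zinc and copper, were at 12.40 and 11.38 in WT and 11.09 and 10.36 in KO control colon (-1.31 and -1.01). Each had its lowest value of the 7 arrays in KO control colon. Tat was at 9.35 and 8.46 (-0.90), with 8.76 and 6.22 in WT and KO ileum (-2.55). In DSS colon Tat was at 10.49 in WT and at 9.68 and 10.42 in KO. Tsc22d3 (GILZ) was at 8.36 and 8.04 (-0.32) and Fkbp5 at 7.79 and 7.75 (-0.05). Fatty acid synthesis had a median of -0.34 over 14 genes in control colon (-0.16 level-centred), 0.39 in ileum and -0.04 in DSS colon. Cholesterol synthesis had -0.22 over 18 genes (-0.10 level-centred), 0.18 in ileum and -0.30 in DSS colon, where none of the 18 lay above 0 and the KO arrays differed from each other by a median of -0.56.

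Goblet cell genes, which make the mucus layer, split by member. Of 18 genes, 16 lay below 0, with a median of -0.33, or -0.21 level-centred, and 3 passed 2-fold. Among all genes 41.0% lay above 0 and 0.286% were lower past 2-fold. Retnlb, the goblet cell protein RELM beta, was at 8.87 in WT and 6.35 in KO control colon (-2.52), 6.42 and 4.63 in WT and KO ileum (-1.79), 10.04 in WT DSS colon, and 12.03 and 10.43 in the KO DSS colons. It was lower in KO in both control tissues, and both KO DSS colons lay above the WT DSS colon. St6galnac1, the sialyltransferase of mucin glycans, was at 7.06 and 5.90 in control colon (-1.16) and 9.99 and 8.90 in ileum (-1.08). In DSS colon it was at 7.19 in WT and at 5.95 and 7.85 in KO, on both sides of WT, with a difference of -1.89 between KO replicates 1 and 2. Muc1, a membrane mucin, was at 8.63 and 7.51 (-1.11).

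The abundant secreted products differed little. Muc2, the gel-forming mucin, was at 13.66 in WT and 13.42 in KO control colon (-0.25), the lectin-like Zg16 at 13.78 and 13.68 (-0.10) and the disulfide isomerase Agr2 at 13.21 and 13.22 (0.01). Spdef and Atoh1, factors of secretory fate, were each at -0.43. Ang4, a secreted ribonuclease, was at 7.30 and 6.50 in control colon (-0.80) but at 7.73 and 9.77 in ileum (2.04).

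Other genes named on the lower side belong to no group above. Adgrf1, an adhesion receptor, was at 9.47 in WT and 6.73 in KO control colon (-2.74), at 5.78 on both ileum arrays, 10.02 in WT DSS colon, and 8.57 and 10.36 in the KO DSS colons. All colon arrays lay above ileum, and the KO control colon was the lowest of the 5 colon arrays. Xpnpep2, a membrane aminopeptidase of the brush border, was at 8.57 and 6.53 (-2.04), with 12.02 and 12.19 in ileum and 6.22 to 6.51 in DSS colon. The WT control colon was thus the sole colon array that stood clearly above the others. Mboat2, an acyltransferase that remodels phospholipids, was at 8.63 and 6.92 (-1.71). As a set, sucrase and other absorptive genes of the small intestine did not share the pattern of Xpnpep2 (median 0.08 over 24 genes, 15 above 0). In WT control colon 8 of the 24 lay below the lower quartile of genes. Some members were lower in KO control colon, such as Slc15a1 at 11.60 and 11.02 (-0.59) and Enpep at 7.41 and 6.98 (-0.43). WT control colon was the highest colon array for Slc15a1.

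Among genes higher in KO control colon, Gdpd3 had the largest difference by the naming rule. Gdpd3, a lysophospholipase D, was at 6.71 in WT and 8.82 in KO control colon, 2.11 higher (4.31-fold), and between 6.47 and 6.97 on the 5 other arrays. The KO control colon thus stood alone. Kcnf1, a modulatory potassium channel subunit (6.31 and 7.67, 1.36 higher), and Krtap4-1, a hair keratin-associated protein (6.43 and 7.59, 1.16 higher), also had their highest value there. Map2, the microtubule protein of neurons, was at 7.25 and 8.66 (1.41 higher), again the highest of the 7 arrays. Enteric neuron and glia genes had a median of -0.18 over 18 genes. Greb1l was at 6.59 and 8.11 (1.52 higher), and its 2 probe sets gave 0.81 and 1.52. Chn2, an inhibitor of Rac, was at 6.91 and 7.82 (0.91 higher), and Prp2, a proline-rich protein, at 8.67 and 9.63 (0.96 higher).

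Clca4b, of the calcium-activated chloride channel regulators, was at 7.01 in WT and 8.28 in KO control colon (1.27 higher), and the other 5 arrays lay far above both (11.49 to 12.85). Apob, the structural protein of chylomicrons, was at 8.77 and 9.87 (1.10 higher). Plb1, a brush border phospholipase, was at 7.67 and 8.70 (1.03 higher), and it was higher in KO ileum as well, past 2-fold. Its 7 probe sets gave 0.13 to 1.03, with a mean of probe sets of 0.53.

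Interferon-induced genes leaned to the higher side. Of 24 genes, 18 were above 0, 2 of them past 2-fold, with a median of 0.22, or 0.28 level-centred. Over all genes 41.0% were above 0 and 0.176% higher past 2-fold. The list mean was 7.29 in WT control colon, 7.56 in KO control colon, 7.84 and 8.37 in WT and KO ileum, 9.49 in WT DSS colon, and 9.84 on both KO DSS arrays. The KO mean lay above the WT mean in each condition, by less in control colon than the step from control to DSS colon. That step also runs from arrays of male pattern to arrays of female pattern.

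Ifit1, which binds foreign capped RNA, was at 6.84 in WT and 8.40 in KO control colon (1.56 higher, 2.96-fold), 9.25 and 9.77 in ileum, 10.33 in WT DSS colon, and 11.00 and 10.60 in the KO DSS colons. The WT control colon was the lowest of the 7 arrays and the KO control colon the next. Oasl2, of the oligoadenylate synthetase family, was at 8.32 and 9.36 (1.04 higher), Ifit3 at 6.69 and 7.50 (0.81 higher) and Oas2 at 6.48 and 7.17 (0.69 higher). All 4 had positive differences in ileum and DSS colon too. Against them stood Oasl1 at 9.26 and 8.69 (-0.57) and the guanylate-binding Gbp7 at 7.91 and 7.38 (-0.53). Outside the list, Gbp2b was at 7.00 and 5.89 (-1.12), its lowest value of the 7 arrays, and Ifi206 at 4.94 and 6.06 (1.13 higher). Both were picked after their values were seen. Irf7 and Stat2, transcription factors of the pathway, were at 0.19 and 0.02. None passed in limma for control colon, with an adjusted p of 0.948 for Ifit1.

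The promoter of Ifit1 is shown because Ifit1 had the largest difference of the interferon list. It is at chr19:34640639-34640938 (plus strand, GRCm38.p6, RefSeq), from 250 bases before to 50 after the start, and capitals mark GAAANNGAAA, the core of the interferon-stimulated response element, on either strand.
Ifit1: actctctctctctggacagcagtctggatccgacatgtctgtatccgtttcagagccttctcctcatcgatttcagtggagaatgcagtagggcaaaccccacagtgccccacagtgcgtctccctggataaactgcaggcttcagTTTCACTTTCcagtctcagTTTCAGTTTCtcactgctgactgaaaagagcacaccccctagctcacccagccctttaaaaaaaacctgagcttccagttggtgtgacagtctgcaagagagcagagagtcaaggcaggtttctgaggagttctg
The motif stood at positions -104 to -95 and -85 to -76 from the start. It was in 11 of 17 interferon-list genes that have a promoter in the table, against 3.44% of all 32851 promoters. The first count is per gene, over any of its promoters, and the second per promoter. Ifit3, which was higher, and Gbp7, which was lower, both held it, whereas the promoter of Oasl2 did not hold these letters.

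Genes of B cells and of MHC class II antigen presentation had the highest list medians. Of 17 measured B and plasma cell genes, 14 were above 0, 3 past 2-fold, with a median of 0.51, or 0.54 level-centred. Among all genes 41.0% were above 0 and 0.176% higher past 2-fold. The list mean was 7.69 in WT control colon, 8.14 in KO control colon, 7.73 and 7.87 in ileum, 8.25 in WT DSS colon, and 7.90 and 8.12 in the KO DSS colons. The KO control colon lay within the range of the DSS colons.

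The receptors of mature B cells led. Ms4a1 (CD20) was at 6.88 in WT and 7.96 in KO control colon (1.09 higher), 5.79 and 6.47 in ileum, 8.56 in WT DSS colon, and 7.96 and 8.28 in the KO DSS colons. Cd79a, the signalling subunit of the B cell receptor, was at 8.61 and 9.64 (1.03 higher), and Cr2, the complement receptor of B cells and follicular dendritic cells, at 5.84 and 7.04 (1.20 higher). Cxcr5, the receptor that guides B cells into follicles, was at 5.52 and 6.21 (0.69 higher), and the list of follicle genes, which shares Cr2, Cxcr5 and Fcer2a with this one, also held its ligand Cxcl13 at 0.86. The 11 measured follicle genes had a median of 0.45. Genes of the plasma cell end differed less, with Jchain, the joining chain of secreted IgA, at 11.11 and 11.46 (0.35), Xbp1 at 11.30 and 11.17 (-0.13) and Mzb1 at 7.13 and 6.95 (-0.18). Immunoglobulin kappa segments that passed 2-fold, picked after their values were seen, went the other way, with 1 at 9.39 in WT and 6.14 in KO (-3.25) and the other at 10.61 and 8.87 (-1.74).

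All 6 measured genes of MHC class II were higher in KO control colon, with a median of 0.65, or 0.74 level-centred, none past 2-fold. H2-Aa, the alpha chain of I-A, was at 10.23 and 11.08 (0.84 higher), H2-Ab1, its beta chain, at 10.34 and 11.12 (0.77 higher), and the invariant chain Cd74 at 10.68 and 11.45 (0.77 higher). Ciita, the coactivator that drives the class II genes, was at 7.36 and 7.53 (0.18). The list mean was 9.47 and 10.03 in control colon and 11.03 and 11.57 in ileum, a KO value above WT in both tissues, and 10.87 in WT DSS colon beside 10.72 and 10.95 in KO. B cells, macrophages and dendritic cells all carry class II. Of 20 macrophage and dendritic cell genes 16 were above 0, with a median of 0.15 and a list mean of 7.38 in WT and 7.54 in KO control colon. Ly86 (MD-1), a partner of the Toll-like receptor homologue Cd180, was at 8.26 and 9.31 (1.05 higher) and also higher past 2-fold in KO ileum. Their share in the class II difference was not tested.

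**Figure D3:**
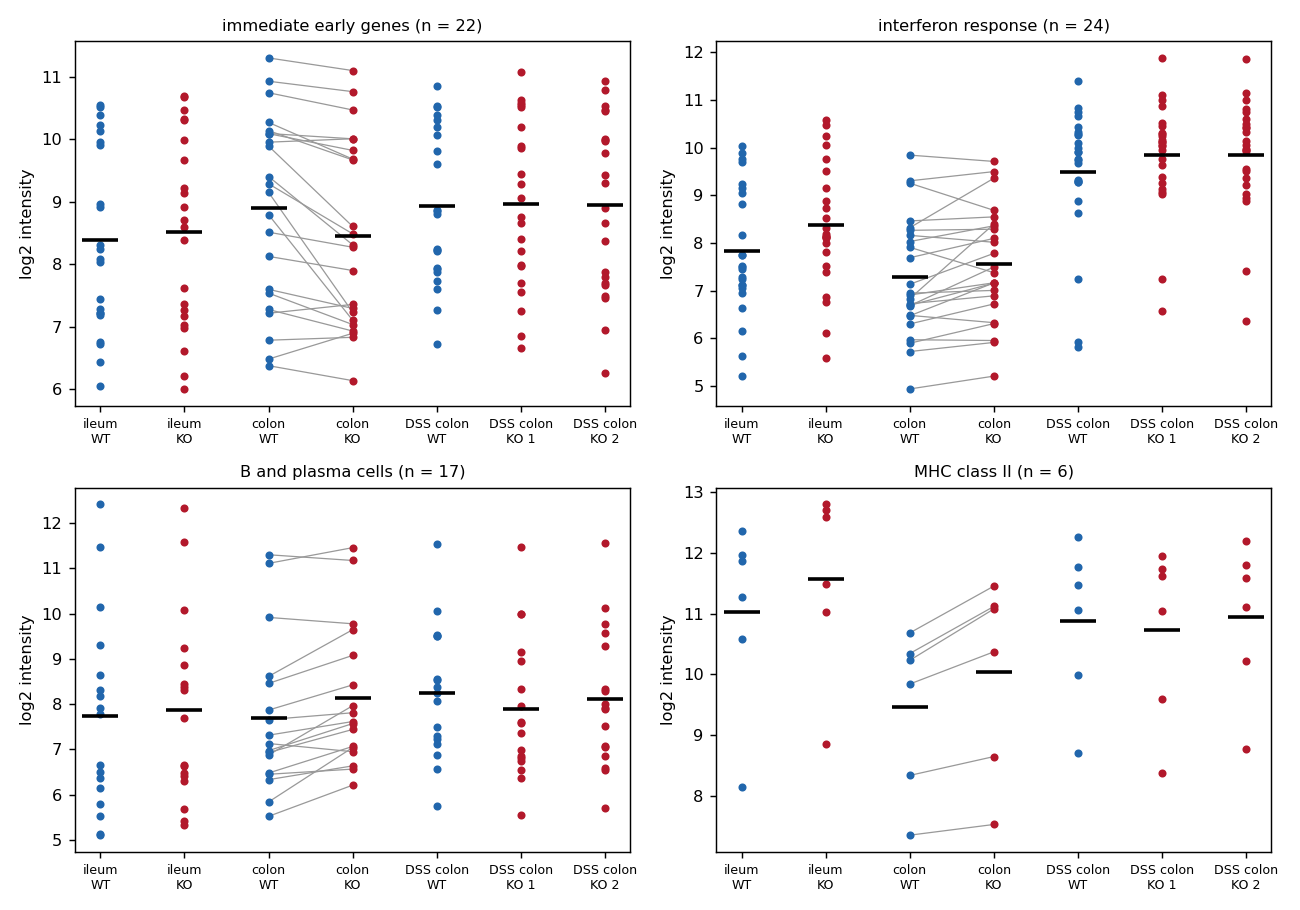
Log2 intensity (y axis) of each gene of 4 lists on each of the 7 arrays (x axis), WT in blue and KO in red, with grey lines joining a gene between the control colon arrays and black bars at the list mean. The bar is lower in KO control colon for immediate early genes (8.45 against 8.91) and higher for MHC class II (10.03 against 9.47), B and plasma cells (8.14 against 7.69) and the interferon response (7.56 against 7.29).

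Most other lists had medians close to that of all genes as deposited. Medians were -0.05 for 31 colonocyte genes, -0.02 for 17 smooth muscle genes, 0.03 for 20 T and NK cell genes, 0.04 for 29 cell cycle genes and -0.08 for 15 endothelial genes. Level-centred, the cell cycle median was 0.21, with 25 of 29 genes above 0. The sign of the colonocyte, smooth muscle and endothelial medians turned when the level offset was taken off, to 0.09, 0.09 and 0.02, and that of T and NK cells to -0.02. Over 10 genes of MHC class I and the immunoproteasome the median was 0.18, or 0.31 level-centred, led by the proteasome subunit Psmb8 at 0.41. The 25 fibroblast and matrix genes had a median of 0.17, or 0.29 level-centred with 21 above 0, with the Wnt antagonist Sfrp1 at 0.74 and the matricellular Thbs1 at -0.79. Of 18 squamous epithelial genes, 14 were above 0 with a median of 0.25, which turned to -0.14 with dim genes left out. The squamous mean was 6.03 in WT control colon and 6.31 in KO, and Krt6b was at 5.61 and 6.83 (1.21 higher), in both cases low on the scale. Of 17 crypt stem cell genes 12 were below 0 (median -0.23, or -0.06 level-centred), with the receptor Lgr5 at -0.99.

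**Figure D4:**
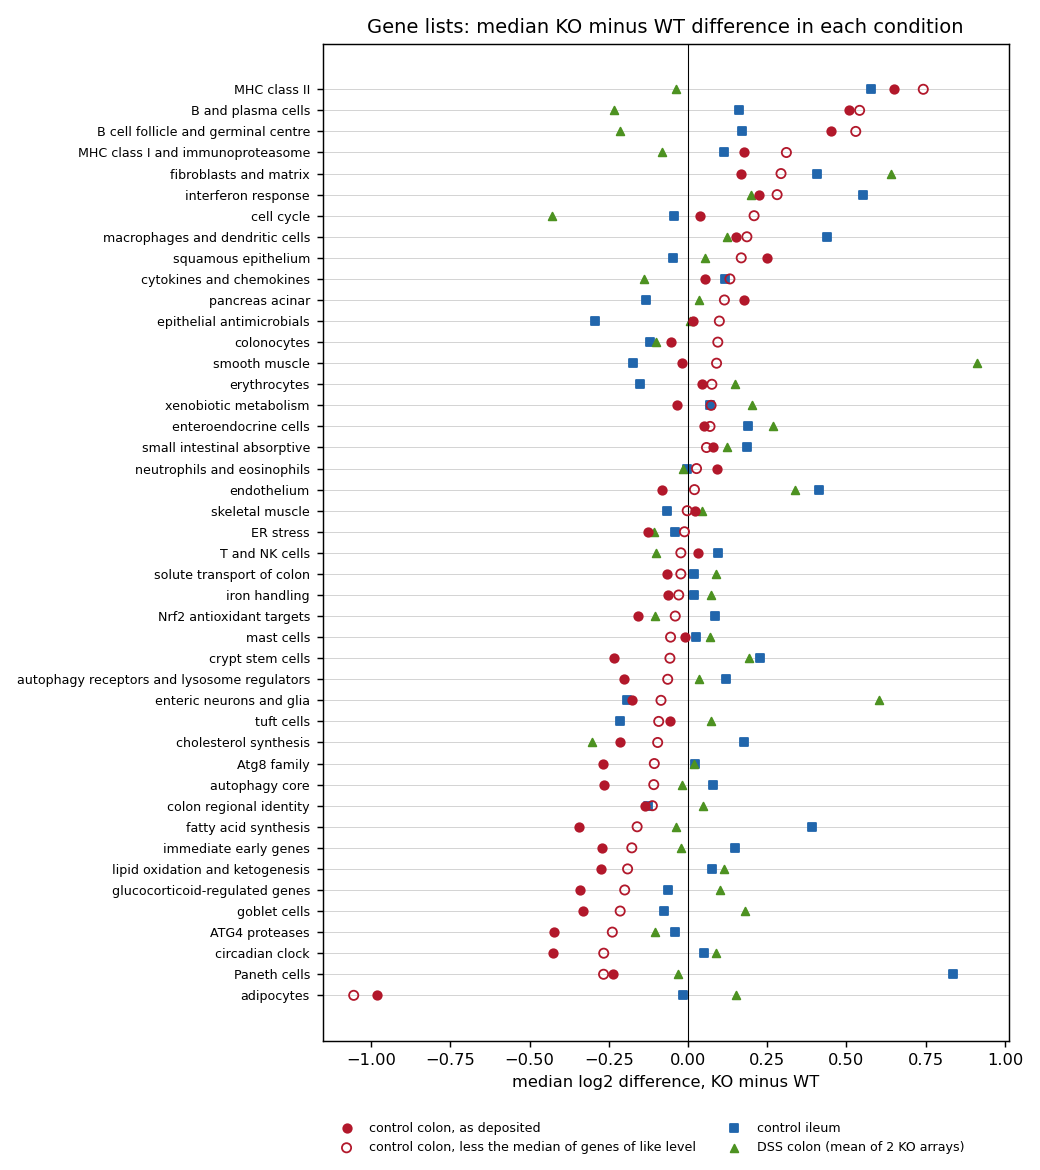
Median log2 difference, KO minus WT (x axis), of each gene list (y axis) in control colon as deposited (filled red) and level-centred (open red), in ileum (blue squares) and in DSS colon (green triangles). The adipocyte list lies at -0.98 and the MHC class II list at 0.65 in control colon, while most lists lie between -0.5 and 0.5.

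The differences in ileum and DSS colon share no array with those in control colon. Across all 19938 genes the differences in control colon and ileum correlated with r = -0.04 and those in control colon and DSS colon with r = 0.04. Over the 9853 genes above the median level r was 0.06 and 0.04. Genes are not independent replicates. The comparison of the control colon difference with the mean of the other differences called no gene in limma with 6 groups (lowest adjusted p = 0.944, 628 genes at an unadjusted p under 0.05).

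Past 2-fold in the same direction in ileum were Ly86, Plb1 and the retinol dehydrogenase Rdh7 on the higher side (8.57% of the 35 genes, 2.42% of the 124 in ileum, beside 0.622% of all genes). On the lower side they were Atg4b, Retnlb and St6galnac1 (5.26% of the 57 genes, 5.66% of the 53 in ileum, beside 0.266% of all genes). In DSS colon they were the odorant receptor Olfr767 on the higher side (2.86% of the 35 genes, 0.763% of the 131, beside 0.657% of all genes) and Atg4b on the lower side (1.75% of the 57, 2.22% of the 45, beside 0.226%). Atg4b was the sole gene past 2-fold in one direction in all 3 conditions. Several genes went opposite ways past 2-fold. Abhd1, Car3, Fabp4, Gbp2b, Pdk4 and Retnlb were lower in KO control colon and higher in KO DSS colon, and Ifi206 was the reverse. In ileum, Hal and Olfr767 were lower and Epha2 and an immunoglobulin kappa segment higher, against their direction in control colon. Genes named here from these counts alone were picked after their values were seen.

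The position of the 2 arrays among all 7 was counted for the genes past 2-fold alone. Those genes were picked for the gap between these 2 arrays, and that choice favours an extreme value on either array. The share over all genes was not counted, so these numbers only describe the picked genes. Of the 57 lower genes, WT control colon was the highest of the 7 arrays in 29, and KO control colon the lowest in 15. Of the 35 higher genes, KO control colon was the highest of the 7 in 22, and WT control colon the lowest in 12.

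**Figure D5:**
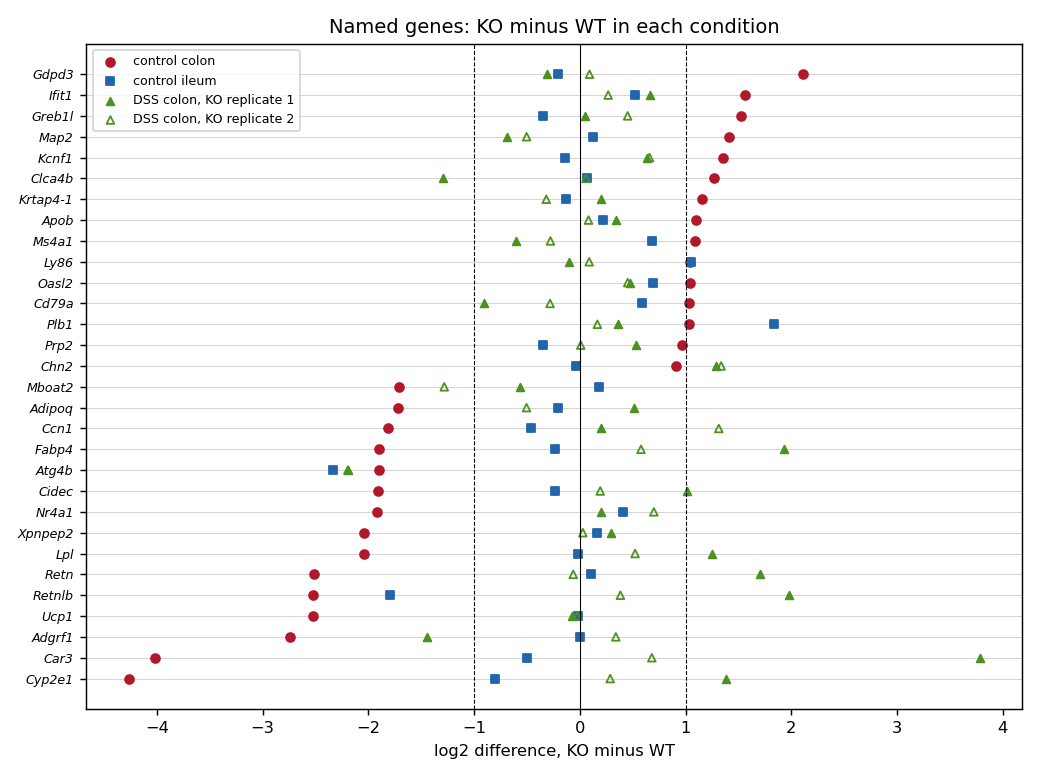
Log2 difference, KO minus WT (x axis), of the 30 named genes (y axis) in control colon (red), in ileum (blue) and for each KO DSS array against the WT DSS array (green triangles); dashed lines mark 2-fold. Atg4b is past 2-fold on the lower side in every condition, and Car3 runs from -4.02 in control colon to the higher side for both KO DSS arrays.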

How the data were processed

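RNA from ileum and colon (RNeasy kit) was hybridised to 7 Affymetrix arrays, per the labels' protocols. The authors deposited 1 linear intensity per probe set and array, between 10.4 and 22236.4; their summary and normalization are not given in the sources used here. A step that equalised arrays would hide a shift shared by all genes. Log2 was computed here, although the tests had been planned for deposited log2 values. Of 35512 probe sets, 21789 have 1 gene symbol, 1621 several and 12102 none in the platform annotation. For 999 genes with several probe sets the brightest on average was taken, for 19938 genes in all.

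Control colon differences are values of 1 array against 1 without a test, called past 2-fold. limma 3.58.1 in R 4.3.3 (lmFit, eBayes, Benjamini-Hochberg adjustment over all genes, threshold 0.05) was fitted to 6 groups and to condition plus genotype, and was tested on simulated data. Named genes are the 15 largest differences each way whose higher value lies above 7.33, without predicted genes, small RNAs, odorant receptors, immunoglobulin and T cell receptor segments and sex markers; members among the 4 with the largest difference in each list described; genes past 2-fold one way in all conditions; and Atg4b, its family and neighbours. Other list members are shown for their role. The comparison and its 45 gene lists (767 of 830 genes measured) were chosen with earlier results of these data known. Alternatives were quantile normalization, centring, an added 32, leaving out dim genes, the mean of probe sets, all probe sets, 1.5-fold, other variance models, and leaving out each array.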

Additional observations from a re-analysis of the deposited data

Results flagged for a closer look

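Among the named genes, 4 were past 2-fold lower in KO control colon and past 2-fold higher in DSS colon, where the mean of the KO arrays was taken and each KO array lay above the WT array. Abhd1 and Gbp2b, outside the naming rule, did the same. Other named genes, such as Lpl and Nr4a1, had opposite signs without passing 2-fold in DSS colon. The control colon difference minus the DSS colon difference was -6.25 for Car3, -3.16 for Fabp4, -2.93 for Pdk4 and -3.70 for Retnlb. These contrasts of the 2 conditions were not tested on their own. The control and DSS colon arrays also differ in sex pattern, and the 2 cannot be told apart. The comparison of the control colon difference with the mean of the ileum and DSS differences did not pass in limma for any of the 4 (adjusted p = 0.944 for each).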

How the results depend on the processing

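The named genes with the 15 largest differences each way kept their sign under every alternative run. Some other named genes with small differences turned sign when the level offset was taken off. Atg4a went from -0.07 to 0.12 and the neighbour Septin2 from -0.01 to 0.08. Adding 32 to each intensity gave -1.37 for Atg4b, 12 genes higher past 2-fold, and 0 genes over the 3 conditions. Leaving out dim genes gave 17 higher genes and list medians of 0.25 for Paneth cells, -1.37 for adipocytes, -0.25 for pancreas and -0.14 for squamous epithelium, of which all but adipocytes turned sign. A 1.5-fold limit gave 263 higher and 384 lower genes, and all probe sets 275 and 454. A variance trend with robust fit called 1 gene in control colon. Leaving out 1 array gave 0 to 1 genes over the 3 conditions. Taking off the level offset, an alternative chosen after seeing the data, gave 41 higher and 45 lower genes, and centring 42 and 46. No paired analysis was possible because the labels number the KO DSS arrays alone. With 1 array per genotype no spread was measured in control colon.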
